A study of Mus musculus with 4 samples.

Results

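The constitutive proteasome subunits were followed in RNA of liver cells from mice that lack Pnpt1, the gene for the RNA exonuclease PNPase, in hepatocytes. The set was fixed by gene symbol: 14 subunits of the core particle (Psma1 to Psma7 and Psmb1 to Psmb7) and 20 genes of the regulatory particle (Psmc1 to Psmc6 and Psmd1 to Psmd14). Probes were assigned through their RefSeq accession. All 34 genes were found, on 44 probes, among 11505 named genes measured. All 44 probes were well above background in both genotypes on 4 of 4 arrays, so that no member was lost to, or admitted by, the filter on dim probes.

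The proteasome degrades proteins that carry ubiquitin chains. Its core particle is a barrel in which outer rings of alpha subunits enclose inner rings of beta subunits, and 3 of the beta subunits, encoded by Psmb5, Psmb6 and Psmb7, carry the proteolytic sites. The regulatory particle binds ubiquitylated proteins, removes the ubiquitin and threads the protein into the barrel. Its base holds a ring of ATPases, and its lid holds the deubiquitinase. In cells exposed to interferon the catalytic subunits are replaced in newly built particles by Psmb8, Psmb9 and Psmb10, which form the immunoproteasome.

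HepKO mice (Albumin-Cre/wt Pnpt1 fl/fl) were compared with WT mice (Pnpt1 fl/fl without Cre), all C57BL/6J, so that both genotypes carried the floxed alleles. Per the labels, a male pair aged 12.29 weeks and a female pair aged 4.29 weeks were each matched for age, sex and litter, and each pair was hybridised to 2 two-colour arrays with the dyes exchanged. The labels give a second, different age for the male pair, and the value above is that of the characteristics. The arrays of a pair share their RNA extracts and lie on 1 slide, so a pair counts as 1 replicate (n = 2 pairs), and effects of sex, of age and of slide cannot be told apart. Albumin-Cre acts in hepatocytes, no sort for hepatocytes is described, and other liver cells in the pellet keep their Pnpt1.

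The labelled sex did not match the arrays. Ddx3y, Eif2s3y and Kdm5d, which lie on the Y chromosome, were well above background in HepKO and WT on both arrays labelled female and on 0 of 2 labelled male, and Xist showed the reverse. The pairs keep their labelled names below, and the ratio within a pair does not use the sex. Whether the labelled ages belong to these pairs could not be checked. Pnpt1 itself had a log2 ratio of -0.10 ± 0.20 (moderated SE, adjusted p = 0.747) on its brighter probe, where the pairs differed in sign, with 0.31 and 0.058 (male pair) and -0.38 and -0.38 (female pair). On its dimmer probe the arrays gave -0.67 and -0.32 (male pair) and -0.50 and -0.60 (female pair). Where these probes lie relative to the deletion is not known here, so they do not check the genotype. Hepatocyte RNA was abundant in all 4 mice: 8 of 8 hepatocyte markers measured were above background in both genotypes, with albumin (Alb) at -0.12 ± 0.27. Cyp2e1, a cytochrome P450, was the 1 hepatocyte marker that passed, and fell by 2.38. Macrophage markers were higher, with 8 of 10 past the test, a median of 1.47, and summed intensities of 57091 and 48569 in the HepKO mice against 6420 and 13031 in WT. Of 8 endothelial markers 6 were higher, with a median of 1.15 and summed intensities of 5121 and 4648 against 2683 and 2059. Of the lymphocyte markers 3 of 8 were higher (Cd3d, Gzmb and Nkg7), with sums of 2744 and 1597 against 660 and 683. Stellate cell markers were higher for 4 of 8, with sums of 15323 and 13792 against 7801 and 7522. Neutrophil markers were higher for 2 of 6, with sums of 4093 and 2097 against 632 and 535. Of the cholangiocyte markers 1 of 5 was higher (Spp1, at 3.96), with sums of 3026 and 6118 against 767 and 870. The 4 erythroid markers had a median of -0.25, with Hba-a1 higher at 3.27 and Alas2 lower at -0.90. In RNA from a whole cell pellet, a change in the share of a cell type and a change in RNA per cell cannot be told apart, and the part of these cells in the members' values was not tested.

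Values are log2 ratios of HepKO over WT, and of the 2 values given for a pair the first comes from the array with HepKO in Cy5 (replicate 1) and the second from that with HepKO in Cy3 (replicate 2). Means are over the 2 pairs, with the moderated SE of limma, and the threshold is a Benjamini-Hochberg adjusted p of 0.05 over all 11505 genes. At that threshold 1 of 34 proteasome genes was higher in HepKO and 0 were lower. Among all genes 11.9% were higher and 3.69% lower, but with normexp fitted on all spots, or with dim probes kept, 0 genes of any kind passed in limma (3024 and 4638 at an unadjusted p under 0.05). The members' values ran from -0.29 to 0.77, so that none of the 34 means reached a 2-fold change in either direction, and their SEs ran from 0.141 to 0.246. A moderated 95% interval lay below a log2 ratio of 1 for 29 of 34 members. For the other 5 it reached past 1, up to 1.34 for Psma5. At an unadjusted p of 0.05, 10 members were higher and 0 lower, which is 29.4% of the members against 23.6% of all genes higher and 12.7% lower at that p.

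Small values above 0 were nevertheless the common pattern. The median of the 34 members was 0.28, against 0.083 for all genes, at 0.29 for the male and 0.26 for the female pair. It was 0.31 and 0.30 for the male-pair arrays and 0.19 and 0.27 for the female-pair arrays. On all 4 arrays 24 of 34 members, each read on its brightest probe, lay above 0, as did 39.4% of all genes. On all 4 arrays 2 members lay below 0, against 25.0% of all genes. The mean was above 0 for 29 of 34 members and for 57.6% of all genes, while 0 members and 10.3% of all genes had a mean above 1. In normalized intensity both HepKO mice exceeded both WT mice for 24 of 34 members (41.9% of all genes) and fell short of both for 2 (26.8%). This excess depended on how intensity was normalized. The scanner software's own log ratios gave 23 of 34 members above 0 on all 4 arrays, against 33.9% of all genes, with a members' median of 0.27. No member passed the test on those ratios, against 13.9% of all genes higher. Normexp fitted on all spots also gave 23 of 34, against 35.9%. With each array only centred on its median, without an intensity-dependent curve, 4 of 34 members lay above 0 on all 4 arrays, against 33.8% of all genes. The members' median was then 0.15 and lay below the 0.18 of all genes. In that setting the male pair's arrays gave opposite member medians of -0.43 with HepKO in Cy5 and 0.58 with HepKO in Cy3, beside -0.21 and 0.53 for all genes.

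**Figure D1:**
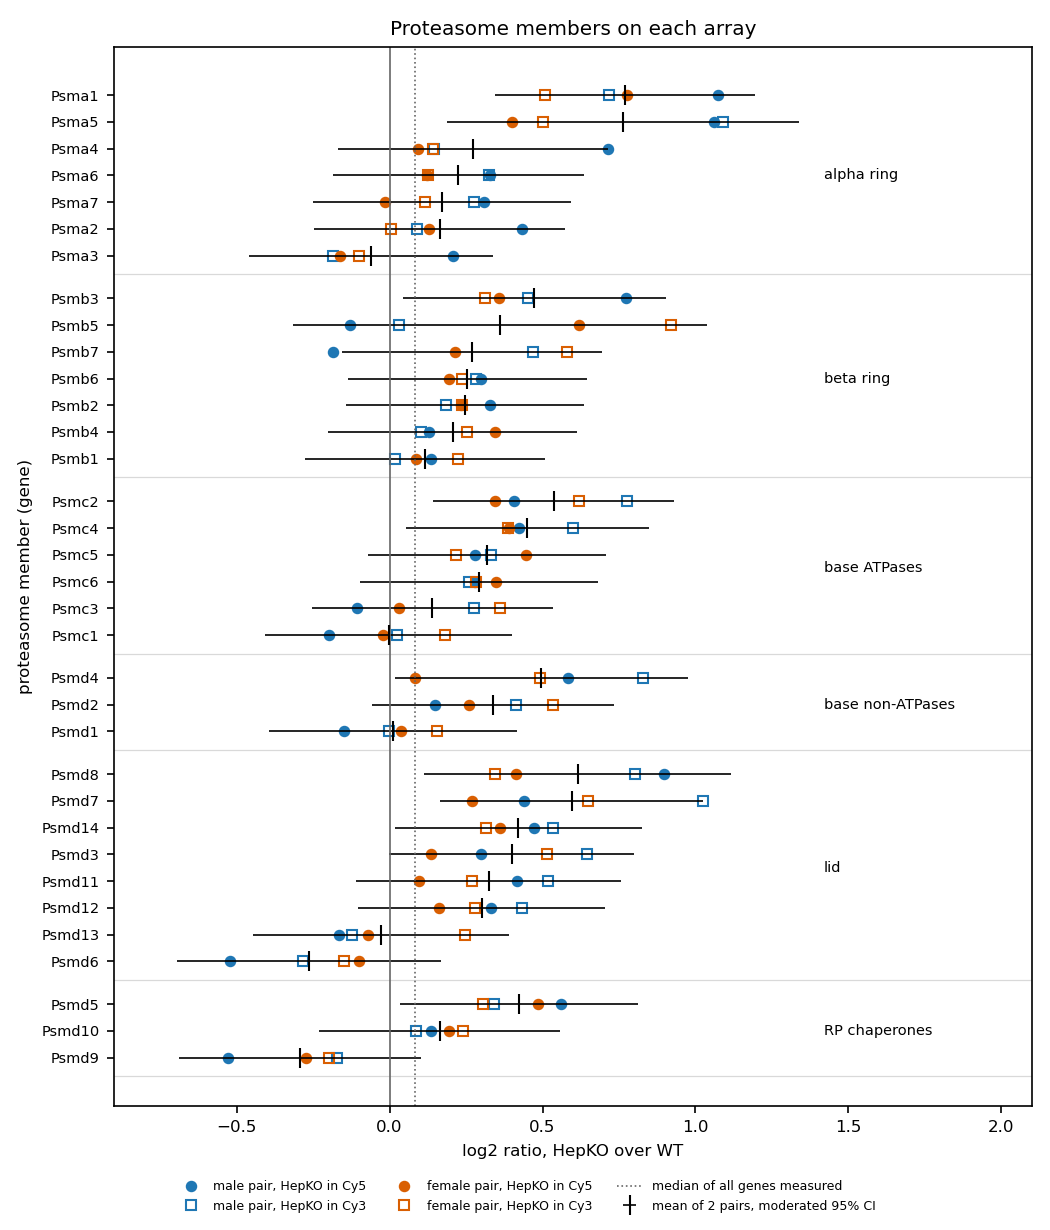
Log2 ratio of HepKO over WT (x axis) for each of the 34 proteasome genes (y axis, by subcomplex) on the 4 arrays, with the mean of the 2 pairs and its moderated 95% interval (vertical tick and line); the dotted line is the median of all genes. Most points lie between 0 and 1, and Psmd6 and Psmd9 lie below 0 on every array.

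The member that passed the test and a pair of catalytic subunits are shown by the 250 bases before the RefSeq transcription start (GRCm38.p6), because the results below turn on them. Capitals mark matches, on either strand, to the CCAAT box (CCAAT), the GC box (GGGCGG) or the antioxidant response element (TGACNNNGC), which NFE2L1, the main activator of proteasome genes, and NFE2L2 bind. The stretches are chr7:114276117-114276366 on the minus strand for Psma1, chr14:54617996-54618245 on the minus strand for Psmb5 and chr17:34197945-34198194 on the plus strand for Psmb8.
Psma1: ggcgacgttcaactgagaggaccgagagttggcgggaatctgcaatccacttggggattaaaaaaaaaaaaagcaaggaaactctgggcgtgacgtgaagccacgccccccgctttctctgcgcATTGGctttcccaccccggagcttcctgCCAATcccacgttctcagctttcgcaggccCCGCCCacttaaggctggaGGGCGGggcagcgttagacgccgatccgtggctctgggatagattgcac
Psmb5: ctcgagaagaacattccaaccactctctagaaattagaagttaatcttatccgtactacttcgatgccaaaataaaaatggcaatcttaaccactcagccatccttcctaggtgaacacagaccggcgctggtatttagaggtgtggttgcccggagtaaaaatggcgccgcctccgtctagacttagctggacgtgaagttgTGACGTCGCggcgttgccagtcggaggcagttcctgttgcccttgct
Psmb8: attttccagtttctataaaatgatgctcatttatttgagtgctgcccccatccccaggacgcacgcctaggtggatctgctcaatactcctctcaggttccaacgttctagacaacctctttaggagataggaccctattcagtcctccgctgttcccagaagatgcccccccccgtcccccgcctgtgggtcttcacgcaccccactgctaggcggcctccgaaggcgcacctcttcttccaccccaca
The Psma1 stretch held 2 CCAAT boxes and 2 GC boxes, and the Psmb5 stretch held 1 antioxidant response element. The Psmb8 stretch held none of these letters. Of the 34 members, 28 had an entry in the promoter table by symbol. An antioxidant response element was found for 5 of these 28 (Psmb5, Psmb6, Psmc6, Psmd9 and Psmd12), against 11.5% of the 27025 genes in the table. A CCAAT box was found for 11 and a GC box for 17 of the 28, against 37.5% and 35.4% of all genes. These are matches of letters within this window and not binding sites.

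In the alpha ring, which gates entry to the barrel, Psma1 rose. Its log2 ratios were 1.07 and 0.72 (male pair) and 0.78 and 0.51 (female pair). All 4 values lay well above 0, and both HepKO mice, with normalized log2 intensities of 13.27 and 13.16, stood above both WT mice, at 12.37 and 12.51. The mean was 0.77 ± 0.15, a 1.7-fold difference with a 95% interval from 1.27 to 2.29, and the adjusted p was 0.0476. The log2 ratio was above 0 in all 13 alternative settings, which reuse the same 4 arrays and add no replicates. The call was close to the threshold: it was kept in 5 of these 13 settings, with adjusted p from 0.034 to 0.135. It was lost without male pair replicate 2 (adjusted p = 0.0733) and without female pair replicate 1 (0.0805).

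Psma5 had nearly the same mean but a wider spread. Its ratios were 1.06 and 1.09 (male pair) and 0.40 and 0.50 (female pair), so the dye orientations agreed closely and the pairs did not. Its mean of 0.76 ± 0.21 had an adjusted p of 0.084. Psma3 lay at the other end of the core particle, with 0.21 and -0.18 (male pair) and -0.16 and -0.10 (female pair) (mean -0.060 ± 0.145, adjusted p = 0.793). The other 4 alpha subunits, Psma2, Psma4, Psma6 and Psma7, had means between 0.16 and 0.27. The ring's median was 0.23, at 0.33 for the male and 0.12 for the female pair.

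In the beta ring no member passed the test, and the means ran from 0.12 for Psmb1 to 0.47 for Psmb3, all of them above 0. Psmb1, a structural subunit, had 0.14 and 0.018 (male pair) and 0.085 and 0.22 (female pair), with a mean of 0.12 ± 0.14 (adjusted p = 0.592). Psmb2 and Psmb4 had 0.25 ± 0.14 and 0.21 ± 0.15, each above 0 on all 4 arrays. Psmb6, which carries the caspase-like site, was the most even of the catalytic subunits. It had 0.30 and 0.28 (male pair) and 0.19 and 0.24 (female pair), with a mean of 0.25 ± 0.14 (adjusted p = 0.272). Its 95% interval on the fold scale ran from 0.909 to 1.56.

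Psmb5, the chymotrypsin-like subunit and the main target of proteasome inhibitor drugs, differed between the pairs. The male-pair arrays read -0.13 and 0.031, whereas 0.62 and 0.92 came from the female pair. The WT mouse of the female pair stood apart, at a normalized log2 intensity of 12.77 against 13.41 in the WT mouse of the male pair, while the HepKO mice were at 13.54 and 13.36. The mean was 0.36 ± 0.25 (adjusted p = 0.351), with a fold interval from 0.803 to 2.05. With 1 mouse of each genotype in a pair, the difference between pairs could not be tested. Psmb7, the trypsin-like subunit, instead differed between dye orientations. With HepKO in Cy5 it had -0.18 (male pair) and 0.22 (female pair), and with HepKO in Cy3 it had 0.47 and 0.58 (mean 0.27 ± 0.15, adjusted p = 0.279).

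The immunoproteasome subunits Psmb8 and Psmb9 stood well above these catalytic subunits. Psmb10 overlapped them in the female pair, with a mean of 0.69 there against 0.77 for Psmb5. Psmb9 had 2.36 and 2.34 (male pair) and 2.05 and 1.96 (female pair), and rose by a mean of 2.18 ± 0.17 (4.52-fold, adjusted p = 0.0129). Psmb8 had 2.60 and 2.59 (male pair) and 1.80 and 1.87 (female pair), and rose by 2.21 ± 0.23 (4.64-fold, adjusted p = 0.0171). Psmb10 had 1.54 and 1.23 (male pair) and 0.66 and 0.72 (female pair), and its mean of 1.04 ± 0.22 did not pass (adjusted p = 0.0544). On each of 4 arrays the immunoproteasome subunit had the higher ratio in all 3 pairs of subunits. Psmb9 exceeded Psmb6 by 1.92 on average, Psmb8 exceeded Psmb5 by 1.85 and Psmb10 exceeded Psmb7 by 0.77. The gap between Psmb8 and Psmb5 was 2.64 (male pair) and 1.06 (female pair), and that between Psmb10 and Psmb7 ran from 0.14 to 1.73 over the arrays. A difference of ratios within an array shows unequal change of the genes, not that the constitutive subunit kept its level. These gaps were not tested. Macrophages and lymphocytes express immunoproteasome subunits, and the marker sums of both cell types given above moved in the same direction, with the part of these cells in Psmb8 and Psmb9 not tested.

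**Figure D2:**
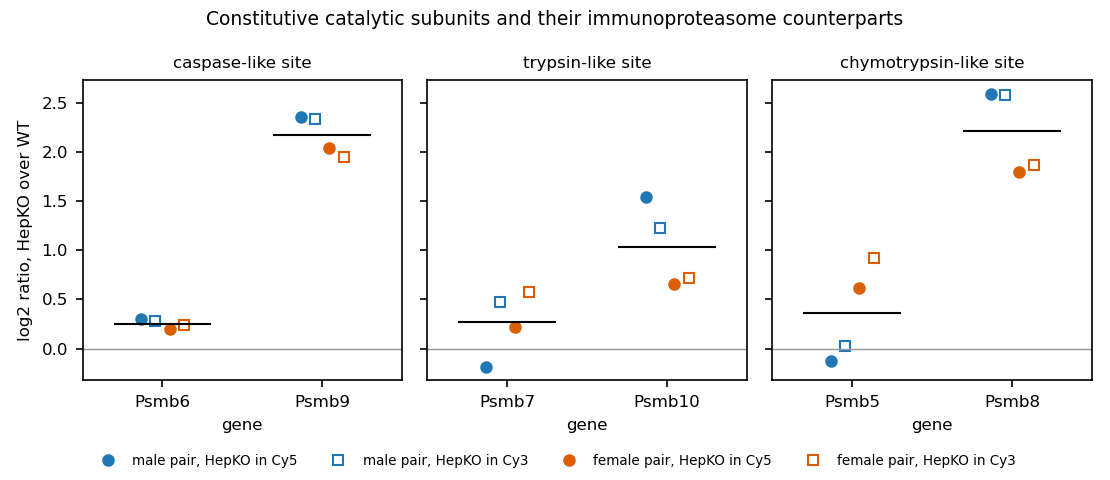
Log2 ratio of HepKO over WT (y axis) on each array for the constitutive catalytic subunits and the immunoproteasome subunits that take their place (x axis), with the mean of the 2 pairs as a bar. Psmb8 and Psmb9 lie between 1.80 and 2.60 on every array, and Psmb5, Psmb6 and Psmb7 lie between -0.18 and 0.92. Psmb10 lies between 0.66 and 1.54 and overlaps the latter range.

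In the base of the regulatory particle no gene passed. The 6 ATPases, which unfold the substrate, had a median of 0.31 and ran from -0.0028 for Psmc1 to 0.54 for Psmc2. Psmc2 had 0.41 and 0.78 (male pair) and 0.34 and 0.62 (female pair), with both HepKO mice above both WT mice, but its adjusted p was 0.0807. Psmc4 was more even on its brighter probe, with 0.42 and 0.60 (male pair) and 0.39 and 0.39 (female pair) (mean 0.45 ± 0.14, adjusted p = 0.112). Its dimmer probe was less even, with -0.0045 and 0.44 (male pair) and 0.15 and 0.27 (female pair). Psmc5, on its brighter probe, and Psmc6 had 0.32 ± 0.14 and 0.29 ± 0.14 and lay above 0 on all 4 arrays. Psmc3, at 0.14 ± 0.14, was below 0 on 1 of them. Of the scaffold proteins and ubiquitin receptors of the base, Psmd4, which binds ubiquitin chains, had a mean of 0.50 ± 0.17 (adjusted p = 0.13). The large scaffolds Psmd2 and Psmd1 had 0.34 ± 0.14 and 0.011 ± 0.147.

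The lid spanned the widest range of the subcomplexes, and no member of it passed. Psmd8 had 0.90 and 0.80 (male pair) and 0.41 and 0.35 (female pair), with a mean of 0.62 ± 0.18 (adjusted p = 0.0972). Psmd7, the partner of the deubiquitinase, had 0.44 and 1.03 (male pair) and 0.27 and 0.65 (female pair), with higher values when HepKO was in Cy3 (mean 0.60 ± 0.16, adjusted p = 0.0782). It passed with HepKO in Cy3 only (0.84, adjusted p = 0.0361), as did Psmc2 (adjusted p = 0.0414). The deubiquitinase itself, Psmd14, had 0.42 ± 0.15, with 0.47 and 0.53 (male pair) and 0.36 and 0.32 (female pair) (adjusted p = 0.128). The structural lid subunits Psmd3, Psmd11 and Psmd12 had means of 0.40 ± 0.15, 0.32 ± 0.16 and 0.30 ± 0.15. All were above 0 on all 4 arrays, with Psmd12 read on its brightest probe. Psmd13, at -0.028 ± 0.152, was above 0 on 1 array. Psmd6 ran the other way, with -0.52 and -0.28 (male pair) and -0.10 and -0.15 (female pair). Its mean of -0.26 ± 0.16 did not pass (adjusted p = 0.294). It was below 0 in 13 of 13 alternative settings, but these reuse the same 4 arrays and add no replicates.

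The 3 genes Psmd5, Psmd9 and Psmd10 encode chaperones that help to assemble the base and leave it before the particle is complete, so they are not subunits of the finished proteasome. They did not share a direction. Psmd9 had -0.53 and -0.17 (male pair) and -0.27 and -0.20 (female pair), with both HepKO mice (10.31 and 10.21 log2 intensity) below both WT mice (10.66 and 10.45). Its mean was -0.29 ± 0.14 (adjusted p = 0.226), and it was below 0 in 13 of 13 alternatives. Psmd5 had 0.56 and 0.34 (male pair) and 0.48 and 0.31 (female pair) (mean 0.42 ± 0.14, adjusted p = 0.12), and Psmd10 had 0.16 ± 0.14.

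Core and regulatory particle did not separate. The core median was 0.25 over 14 genes and the regulatory median 0.32 over 20, with 10 of 14 and 14 of 20 genes above 0 on all 4 arrays, against 39.4% of all genes. The core minus regulatory difference was -0.067 (male pair) and -0.076 (female pair), but on single arrays the order turned with the dyes. With HepKO in Cy5 the core median was higher, by 0.029 (male pair) and 0.027 (female pair). When the genes' ratios with HepKO in Cy5 were first averaged over the 2 pairs, the core median was 0.2458 and the regulatory median 0.2507. With HepKO in Cy3 the core median was lower on both arrays, with differences of -0.15 (male pair) and -0.057 (female pair). In the male pair 16 of 20 regulatory genes, but 3 of 14 core genes, had a lower ratio with HepKO in Cy5 than in Cy3. In the female pair this held for 13 of 20 regulatory and 10 of 14 core genes, so that contrast between the particles was not seen there. In each pair the difference between the particles was smaller than its change when the dyes of the same RNA were exchanged.

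**Figure D3:**
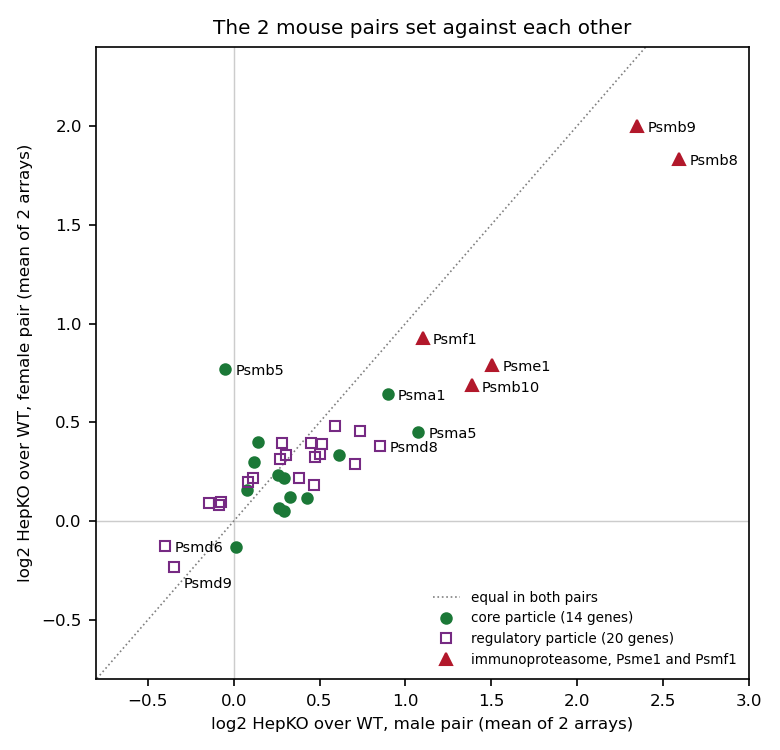
Mean log2 ratio of HepKO over WT in the male pair (x axis) against that in the female pair (y axis), for 14 core genes, 20 regulatory particle genes and 5 other proteasome genes, with a dotted line of equality. Core and regulatory genes overlap, Psmb5 stands at -0.049 on the x axis and 0.77 on the y axis, and Psmb8 and Psmb9 lie apart from the 34 members.

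Of the other genes of the pathway, 44 of 50 listed were measured; 7 were higher (15.9%, against 11.9% of all genes) and 0 lower (against 3.69%), with a median of 0.18. The share higher is near that of all genes. Besides Psmb8 and Psmb9 these included 2 modulators of the particle's ends. Psme1, a subunit of the interferon-induced activator PA28, had 1.38 and 1.64 (male pair) and 0.83 and 0.75 (female pair) and rose by 1.15 ± 0.23 (adjusted p = 0.0457, kept in 6 of 13 alternatives, with adjusted p of 0.0593 without male pair replicate 2 and 0.0619 without female pair replicate 1). Psmf1, the inhibitor PI31, had 0.89 and 1.31 (male pair) and 0.93 and 0.93 (female pair) on its brighter probe. It rose by 1.01 ± 0.15 (adjusted p = 0.0275, kept in 10 of 13 alternatives). The adjusted p was 0.0499 on the scanner log ratios and 0.0508 in the authors' value table. Its dimmer probe had 0.77 and 0.77 (male pair) and 0.52 and 0.50 (female pair), with a mean of 0.64. The alternative activators Psme3 and Psme4, which cap the core in place of the regulatory particle, had -0.083 ± 0.149 and -0.38 ± 0.18, and neither passed.

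Among ubiquitin genes and activating enzymes 1 gene passed. The polyubiquitin gene Ubb had 2.30 and 1.97 (male pair) and 1.27 and 1.02 (female pair) and rose by 1.64 ± 0.28 (adjusted p = 0.0362, with 0.0554 without male pair replicate 2 and 0.0569 without female pair replicate 1). Rps27a, which encodes ubiquitin fused to a ribosomal protein, had -0.022 ± 0.149. The ubiquitin-activating enzymes Uba1 and Uba6 had 0.26 ± 0.15 and 0.14 ± 0.14 on their brightest probes. Their other probes had means slightly below 0, at -0.052 for Uba1 and at -0.077 and -0.0070 for Uba6.

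Of the transcription factors that act on proteasome genes, Nfe2l1 had 0.17 and 0.38 (male pair) and -0.10 and -0.17 (female pair) (mean 0.068 ± 0.173, adjusted p = 0.804). Nfe2l2 had 2.15 and 2.42 (male pair) and 1.47 and 1.38 (female pair) and rose by 1.86 ± 0.26 (adjusted p = 0.0253). Zfand2a, the arsenite-inducible regulator of the proteasome, rose by 1.07 ± 0.19 (adjusted p = 0.0387, with 0.0583 without male pair replicate 2 and 0.0629 without female pair replicate 1) and was the gene that passed among 12 shuttle factors and regulators. None of the 4 assembly chaperones measured passed, with Psmg1 at -0.23 ± 0.17 and the maturation factor Pomp at 0.23 ± 0.14. None of 4 further regulatory particle proteins passed, and Sem1 was the highest at 0.27 ± 0.15. None of 8 genes of the p97 segregase and its cofactors passed, with Vcp at -0.11 ± 0.14 and Ubxn4 at 0.48 ± 0.15. Dimmer kept probes gave 0.010 for Vcp and 0.10 and 0.25 for Ubxn4.

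The COP9 signalosome, a complex whose subunits resemble those of the lid, served as a comparison. Its 9 genes had a median of 0.090, close to the 0.083 of all genes, and ran from -0.030 for Gps1 to 0.27 ± 0.14 for Cops7b. The lid's median over 8 genes was 0.36. These medians are from the reported processing alone. With median centring of each array the median of all proteasome members lay below that of all genes, and the lid and the signalosome were not compared there. None of the 17 genes of these complexes passed the test, and the difference between the lists was not tested.

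**Figure D4:**
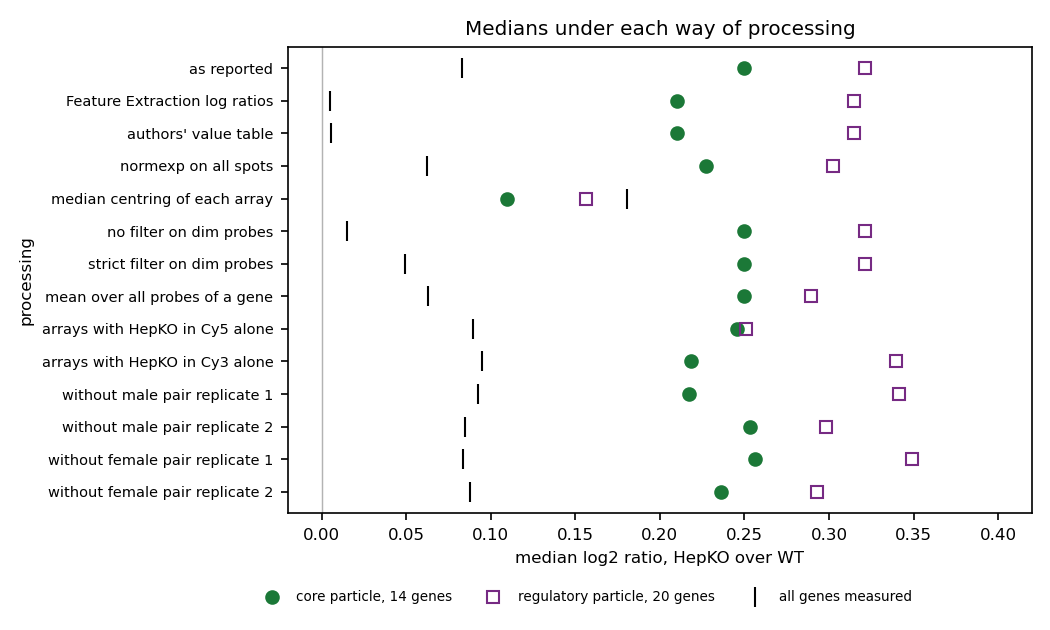
Median log2 ratio of HepKO over WT (x axis) of the core particle, the regulatory particle and all genes under each way of processing (y axis). Both particles lie above all genes except with median centring of each array, where they lie below, and the core median is below the regulatory median in every row.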

How the data were processed

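RNA of perfused liver cells from 4 mice was measured on 4 two-colour Agilent arrays. Per the file headers, images were read with Feature Extraction 10.2.1.3, and the deposited intensity values used here are spot means and local background medians, with nothing subtracted. The deposited log10 ratios, in the scanner files and in the authors' value table, had been background-subtracted and dye-normalized per the file headers. Both served as alternatives. The table correlated at 1 or -1 with the scanner log ratios, and its direction was taken from that.

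Spots with a non-uniformity flag, or a population outlier flag of the spot (178 to 260 spots per array), were left out. Background was corrected with normexp (offset 50), and loess was fitted within arrays with control spots at weight 0 (limma 3.58.1, R 4.3.3). No spot was saturated. Ratios were turned to HepKO over WT, and the dye orientations of a pair were averaged. Probes were kept if well above background on both arrays of a pair in at least 1 genotype (22842 of 41174). They were named by RefSeq accession through a table of assembly GRCm38.p6, which named 55.7% of probes. Each gene was represented by the brightest of its kept probes. An intercept was fitted to the 2 pair values (1 residual degree of freedom and 3.11 borrowed ones), with Benjamini-Hochberg adjustment over 11505 genes. Normalized intensities per mouse were scaled between arrays by Aquantile. The number of arrays limits the precision. The fit was tested on simulated independent genes with known rises, all larger than any member's mean, and without dye or slide effects. That test does not bear on changes as small as those of the members.

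The members and gene lists were chosen with earlier results of these data known. Members past the threshold, the 2 highest and 2 lowest of each particle, and Psmb5, Psmb6 and Psmb7 were to be named, with the genes past the threshold (at most 4) or else the largest change of each pathway list. Other members are named as part of the account of all 34. The tissue-specific subunits Psma8 and Psmb11 gave no measured value. Some genes of the pathway lists are not reported here by name.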

Additional observations from a re-analysis of the deposited data

Results flagged for a closer look

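Psmd1, the largest scaffold protein of the base, lay below 0 on both arrays of the male pair (-0.15 and -0.0025, mean -0.075). It lay above 0 on both arrays of the female pair (0.037 and 0.16, mean 0.097). Both pair means were smaller in size than the moderated SE of 0.147 of its mean over the pairs. The difference between the pairs was not tested, since each pair holds 1 mouse of each genotype, and the pair labels differ in sex, age and slide together.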

How the results depend on the processing

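No proteasome gene was lower in any of the 13 alternatives. The number higher, 1 as reported, was 0 from the scanner log ratios, 0 from the authors' table of values, 0 when normexp was fitted on all spots, 0 after median centring, 0 with dim probes kept and 2 (Psmc2 and Psmd7) for HepKO in Cy3 only, and it ran from 0 to 1 when single arrays were left out. Over all genes, 1373 were higher and 424 lower. Both counts were 0 with normexp on all spots (lowest adjusted p in limma 0.0699, with 3024 genes under an unadjusted p of 0.05) and 0 with dim probes kept (0.0691, 4638 genes). In these 2 settings Psmb8, Psmb9, Psmf1, Nfe2l2, Ubb, Zfand2a and Psme1 also lost their calls. For HepKO in Cy3 only, 686 genes were lower, and without single arrays the number lower ran from 205 (without male pair replicate 2) to 577. The core median of 0.25 was 0.21 from the scanner log ratios, 0.21 from the authors' table of values and 0.11 after median centring. The regulatory median of 0.32 was 0.16 with median centring, 0.29 with the mean over all probes of a gene and 0.25 for HepKO in Cy5 only. Without single arrays the core median ran from 0.22 to 0.26 and the regulatory median from 0.29 to 0.35. The cause of these shifts was not tested. Normexp on all spots took in a local background of up to 41156.5 on female pair replicate 2, against a median of 29. The reported fit is itself paired, since each ratio compares the 2 mice of a pair. No paired analysis was possible beyond it, because the 2 arrays of a pair hold the same RNA extracts with the dyes exchanged. All member signals were well above background.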

Other observations

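Of the 34 proteasome genes, 9 were read by more than 1 probe, and the mean ratios of a gene's probes agreed in sign in all 9. Single arrays agreed less. Dimmer probes of Psma4, Psmc4, Psmc5, Psmd2 and Psmd12 fell below 0 on arrays where the brightest probe lay above 0. The lowest such value was -0.21, for Psmd12 on female pair replicate 1. The counts of members above 0 on all 4 arrays therefore rest on the brightest probe. The gap between the probes of a gene ran from 0.0091 for Psma4 to 0.26 for Psmd12, whose 3 probes gave means between 0.037 and 0.30. Psmc4 had 0.45 on its brighter and 0.21 on its dimmer probe, and the probes of Psmd9 gave -0.29 and -0.28.

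Letters of the interferon-stimulated response element (either strand) lay in the 250 bases before the start of 3 of 28 members with a promoter entry (Psmb3, Psmd4 and Psmd9) and of 0 of the 3 immunoproteasome genes, against 3.46% of all genes in the table. The longer promoters of these genes were not analysed here.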
